A study of Mus musculus with 10 samples.

Results

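The sites of 2 subunits of RNA polymerase III (Pol III), POLR3C and POLR3GL, were compared in mouse embryonic stem (ES) cells by chromatin immunoprecipitation sequencing (ChIP-seq), from 1 library a side. All deposited peaks of the 2 lists on chromosomes 1 to 19 were taken, whatever their score. These were 311 POLR3C peaks and 231 POLR3GL peaks, 542 of the 560 peaks in both lists and of 46940 peaks in the 8 lists of the series. The cells were ES-E14TG2a, an established mouse ES cell line obtained from ATCC, grown with LIF and serum and given no other treatment in the labels. Both antibodies were made in-house. Cells were fixed at 80% confluence, about 10 µg of antibody went into each assay, and chromatin was sonicated to an average of 200 to 700 bp. Lists of the same antibodies and of POLR3G in primary mouse embryonic fibroblasts (MEFs, from E12.5 embryos, passaged 3 to 5 times, grown without LIF), the POLR3G list of ES cells, and RNA polymerase II (Pol II) lists of both cell types served as further readouts at the same positions. The genotype or strain of the MEFs is not stated in the labels, and peak lists hold no expression values with which to check either cell type.

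The RNAs made by Pol III are short and non-coding, among them the tRNAs and 5S rRNA. POLR3C sits with POLR3F and either POLR3G or POLR3GL in a subcomplex of the enzyme that takes part in initiation at promoters. POLR3G and POLR3GL are paralogs that replace each other in this subcomplex, and POLR3G is known for its high level in stem cells, while POLR3GL is broadly expressed. Every complete Pol III, whichever paralog it holds, therefore carries POLR3C, whereas POLR3GL marks the form with that paralog. tRNA genes are short and have promoters inside the transcribed sequence, and in mouse many of them lie in dense groups. All positions are on mm9. No gene was attached to any peak, since no mm9 annotation was used here, and loci are named by position.

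Nearly every POLR3GL site was a POLR3C site, while the reverse was true of about 2 in 3 POLR3C sites. Of the 231 POLR3GL peaks, 214 shared at least 1 bp with a POLR3C peak (92.6%, exact 95% interval 88.5 to 95.7%). Of the 311 POLR3C peaks, 214 shared at least 1 bp with a POLR3GL peak (68.8%, 63.3 to 73.9%). These overlaps were 214 separate pairs, each of 1 peak per list. Pairing by nearest midpoints up to 500 bp apart gave 214 pairs as well. Intervals cover counting error over peaks only, the number of reads in each library is unknown, and with 1 library a side no difference has a replicate check. The lists differ in length, which bounds these shares.

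The remaining peaks fell into 3 kinds. POLR3C stood alone, with no POLR3GL midpoint within 500 bp, at 97 peaks (31.2% of its list, 26.1 to 36.7%). POLR3GL stood alone at 5 peaks (2.16% of its list, 0.706 to 4.98%). A further 12 POLR3GL peaks (5.19%, 2.71 to 8.90%) lay within 500 bp of a POLR3C peak that already had a nearer POLR3GL peak, and are called companion peaks here. The plot of POLR3C against POLR3GL scores shows all 4 classes.

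**Figure D1:**
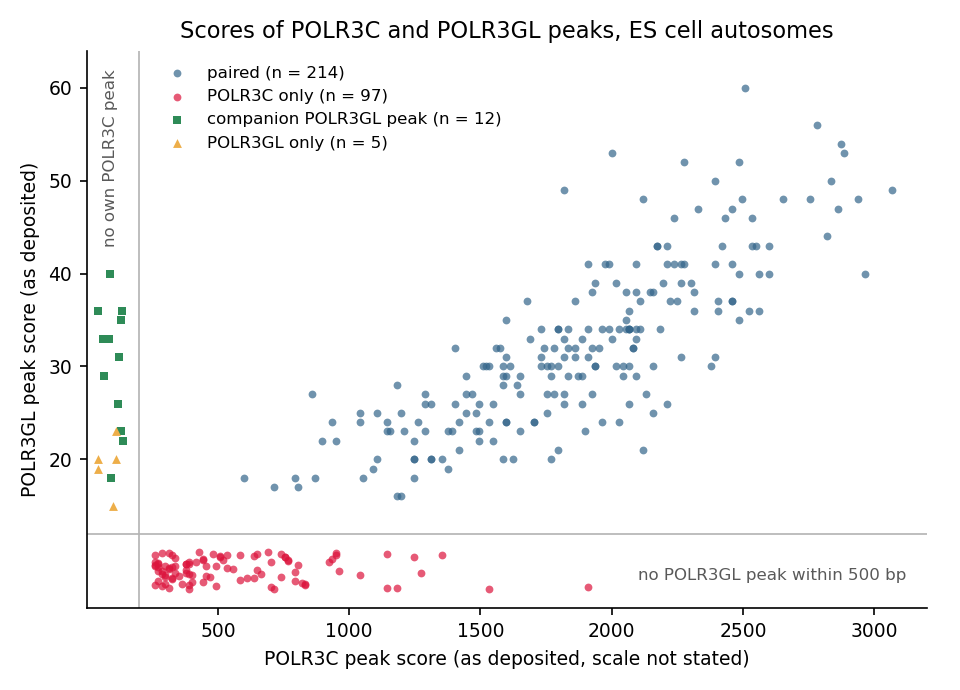
Deposited score of each POLR3C peak (x axis, scale not stated) against that of its paired POLR3GL peak (y axis, scale not stated) on ES cell autosomes, with single peaks in strips outside the plotted range, spread at random within the strip. The 214 pairs rise together, the 97 POLR3C peaks without POLR3GL sit mostly at low POLR3C scores, and the 12 companion and 5 single POLR3GL peaks are in the strip at the left.

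Whether a POLR3C peak had POLR3GL went with its score. Scores have no stated scale, so each peak was given a percentile rank within its own autosomal list, 0 for the lowest score and 100 for the highest. In the lowest quartile of POLR3C scores (260 to 754), 2 of 77 peaks had a POLR3GL partner (2.60%, 0.316 to 9.07%). In the next quartile (767 to 1573) 57 of 78 did (73.1%, 61.8 to 82.5%). In the third quartile (1586 to 2054) 77 of 78 did (98.7%, 93.1 to 100.0%), and in the highest (2067 to 3069) all 78 did (100%, 95.4 to 100%). These shares stand against 68.8% over all POLR3C peaks. The change was steep, from 22.6% (7 of 31) in the third decile of scores to 71.9% (23 of 32) in the fourth and 93.3% (28 of 30) in the fifth.

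The POLR3GL list showed no such step. Its lowest quartile (scores 15 to 24) had a POLR3C partner at 50 of 58 peaks (86.2%, 74.6 to 93.9%), and its highest (38 to 60) at 55 of 56 (98.2%, 90.4 to 100.0%). The quartiles between had partners at 96.5% and 90%, against 92.6% over all POLR3GL peaks. A low POLR3GL score was thus mostly found at a POLR3C site, whereas a low POLR3C score mostly had no POLR3GL call. A missing call at a low score cannot be told apart from a signal under the calling threshold.

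**Figure D2:**
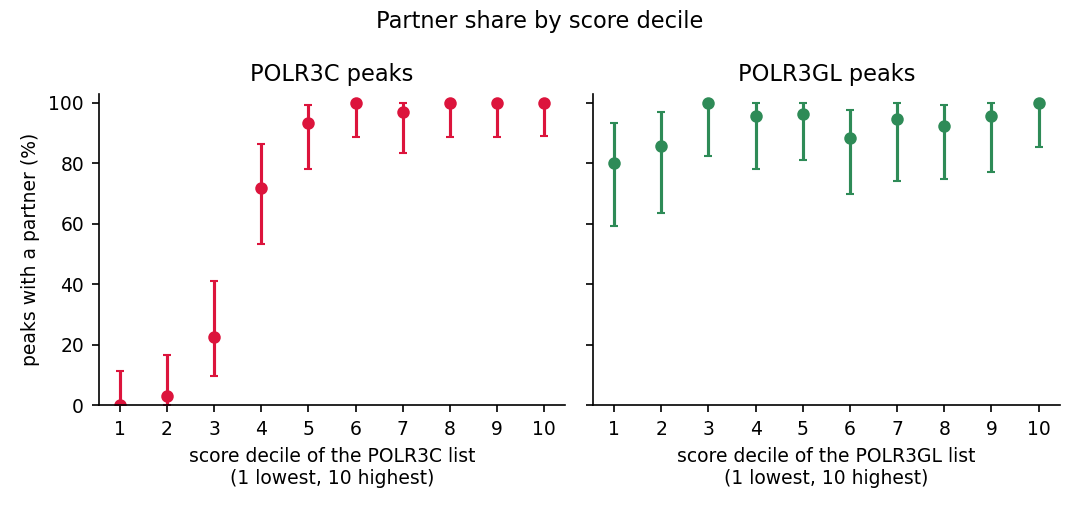
Share of POLR3C peaks (left) and of POLR3GL peaks (right) with a partner in the other list, in percent, by decile of the score within the list, with exact 95% intervals as bars. POLR3C goes from 0 of 31 in the lowest decile to 32 of 32 in the highest, while POLR3GL starts at 80% (20 of 25).

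Paired POLR3C peaks scored between 598 and 3069, with a median of 1885, and single POLR3C peaks between 260 and 1911, with a median of 455. The ranges overlap. The lowest paired POLR3C score, 598, was at chromosome 6 from 47698392 to 47698605, and 36 of the 97 single peaks scored at or above it. Single POLR3GL peaks scored 15 to 23, all under the list's median of 31. Companion POLR3GL peaks scored 18 to 40, with a median of 32, and 7 of the 12 ranked above the middle of their list. Companion peaks were therefore spread over the POLR3GL scores, while single peaks of either kind lay towards the low end.

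Paired midpoints were close. The POLR3GL midpoint lay a median of 15 bp from the POLR3C midpoint (95% interval of the median 11 to 20 bp, n = 214 pairs), with an interquartile range of 5 to 49.75 bp and a maximum of 166 bp. There was no lean to either side of the coordinate. The POLR3GL midpoint was on the higher side in 100 pairs, on the lower side in 107 and at the same base in 7, and the median signed offset was -0.5 bp (-4 to 2). The lists give no strand, so the side is that of the coordinate and not upstream or downstream. POLR3C peaks were 214 bp wide and POLR3GL peaks 142 bp, and in 143 pairs (66.8%) the POLR3GL peak lay wholly within the POLR3C peak.

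Most offsets were small, and the rest were spread rather evenly up to 80 bp. There were 122 pairs offset by up to 20 bp, then 25, 30 and 24 in the next bins of 20 bp, and 13 by over 80 bp. Of the 54 over 40 and up to 80 bp, 26 were on the lower and 28 on the higher side. These bins were chosen after the offsets were seen. Offsets differed little by score, with medians of 11, 20, 19 and 12 bp from the lowest to the highest quartile of paired POLR3C scores, whose intervals (6 to 24, 10 to 34, 11 to 38 and 8 to 21 bp) overlap. Pairs with and without near neighbours were alike in their medians, 14.5 bp (8 to 31) in the 82 pairs with another peak within 1 kb and 15.5 bp (11 to 22) in the 132 without, and these intervals overlap.

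**Figure D3:**
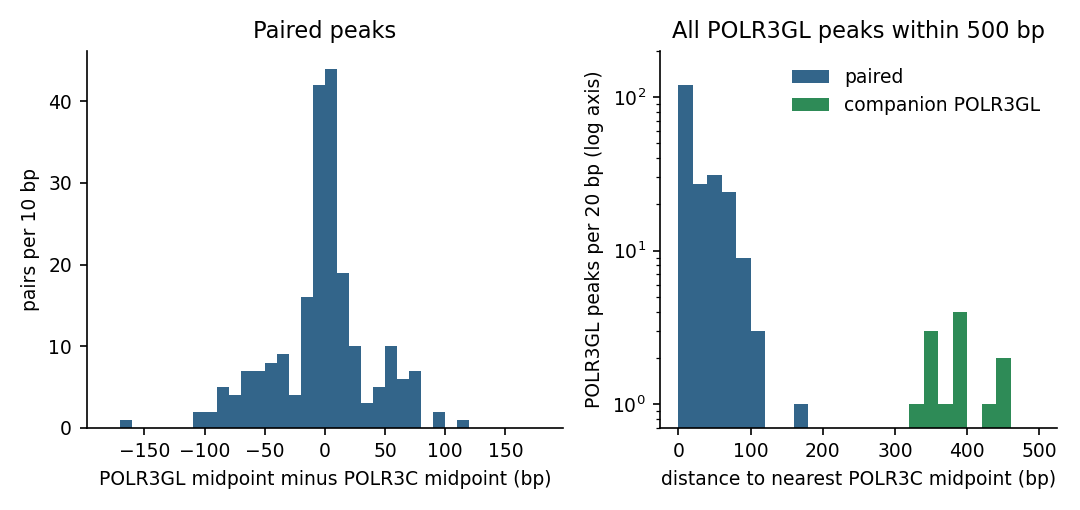
Left, signed distance from the POLR3C to the POLR3GL midpoint in bp against the number of pairs per 10 bp. Right, distance of POLR3GL peaks to the nearest POLR3C midpoint in bp, up to 500 bp, against peaks per 20 bp on a log axis. Pairs end at 166 bp, and the 12 companion peaks start at 337 bp.

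The 5 pairs farthest apart were each called by both antibodies in MEFs too, as were nearly all pairs (95.8% by POLR3C and 98.1% by POLR3GL). At chromosome 7 from 105964065 to 105964278 POLR3C scored 1755, and POLR3GL (30) lay 166 bp lower in coordinate. At chromosome 3 from 19528774 to 19528987 POLR3C scored 1677 and POLR3GL 37, with the midpoint 111 bp higher. At chromosome 19 from 5038290 to 5038503 the offset was -105 bp, at chromosome 1 from 172964056 to 172964269 it was -101 bp, and at chromosome 6 from 128789059 to 128789272 it was -99 bp. Only the first of these exceeded 111 bp, and no POLR3GL peak lay between 166 and 337 bp from a POLR3C midpoint.

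The same 4 antibody and cell type combinations set a scale for these offsets. At 201 of the 214 pairs POLR3C and POLR3GL each overlapped a MEF peak of their own antibody. This requirement limits how far apart midpoints of the 2 cell types can lie. Elsewhere MEF calls at pairs were judged by overlap with the POLR3C peak. The pair with the 166 bp offset was not among these 201 loci, whose largest offset in ES cells was 111 bp. Over these loci the median distance between POLR3GL and POLR3C was 15 bp (11 to 20) in ES cells and 14 bp (11 to 18) in MEFs. The POLR3C midpoints of MEFs and ES cells were a median of 10 bp apart (7 to 14), and the POLR3GL midpoints 16 bp (13 to 21). The distance between the 2 subunits in ES cells was thus about that between the POLR3GL libraries of the 2 cell types, and 5 bp more than that between the POLR3C libraries. All 4 comparisons had a like spread, with 116, 126, 133 and 112 loci up to 20 bp and between 15 and 33 in each further bin of 20 bp up to 80 bp. The signed offset of a locus in ES cells bore almost no relation to its offset in MEFs (Pearson r = 0.11, Spearman rho = 0.08, across 201 loci, which are not replicates). Of the 47 loci offset by over 50 bp in ES cells, 18 were so in MEFs (38.3%), 13 of them to the same side, against 46 of all 201 loci (22.9%).

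The companion POLR3GL peaks lay well away from the pairs. Since POLR3GL midpoints were never nearer to each other than 342 bp, a companion of a paired peak had to lie some way off, and the empty stretch is no finding of its own. All 12 lay 337 to 459 bp from the nearest POLR3C midpoint, each beside a different pair. At 11 of the 12 the companion scored no higher than the POLR3GL peak of the pair beside it, the exception being chromosome 3 from 19527883 to 19528024 (23 against 20). The highest-scored companion lay at chromosome 5 from 125885974 to 125886115, where it scored 40 and the paired POLR3GL peak 50, beside a POLR3C peak of 2834. Next came chromosome 13 from 21802426 to 21802567 (36 beside 43) and chromosome 14 from 51684450 to 51684591 (36 beside 40). Companions at chromosome 11 from 58115612 to 58115753 scored 35 beside 41, and at chromosome 5 from 125889310 to 125889451 scored 33 beside 36. These 5 are the highest. All 12 companions scored 18 to 40, with a median of 32 against 31 over the whole POLR3GL list. They lay next to POLR3C peaks that scored 1105 to 2834.

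Companion peaks recurred in the MEF POLR3GL list. All 12 overlapped a MEF POLR3GL peak (scores 25 to 71), near the share of 98.1% at pairs, against 74.7% of all 328 loci of the 2 ES lists. At all 12 the neighbouring pair overlapped another, separate MEF POLR3GL peak. POLR3C was different. MEF POLR3C had 2 separate peaks at 1 of the 12 places, a single peak at the paired site at 7, and a single peak at the companion site, with none at the paired site, at 4. MEF POLR3G was called at 8 of the 12 companions (66.7%), near its share of 69.6% at pairs, against 50.9% of all loci. The lists differ in how near their own peaks come to each other. The smallest distance between midpoints was 410 bp within the ES POLR3C list and 342 bp within the ES POLR3GL list, and 450 bp and 303 bp within those of MEFs. At 9 of the 12 places the POLR3GL peaks were nearer to each other than 410 bp. Whether a smallest allowed distance in peak calling took part in the missing POLR3C calls was not tested. Where POLR3C peaks did come within 500 bp of each other, at 8 places, both had POLR3GL at 7 and neither at 1.

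POLR3GL without POLR3C was rare and of low score on autosomes. With chromosomes X and Y the count was 16 in place of 5, since 11 of the 12 POLR3GL peaks there had no POLR3C within 500 bp, and these 11 scored 16 to 99, 2 of them above the autosomal maximum of 60. Of the 5 autosomal peaks, 2 lay just past the 500 bp limit, at chromosome 13 from 21262081 to 21262222 (score 23, 517 bp from a POLR3C midpoint and called by POLR3GL in MEFs) and at chromosome 19 from 12086673 to 12086814 (score 19, 631 bp). The other 3 had no POLR3C peak within 1 Mb. At chromosome 13 from 4560531 to 4560672 POLR3GL scored 20, and the ES POLR3G list had a peak with the same midpoint, which scored 18. At chromosome 4 POLR3GL scored 20 from 145029784 to 145029925 and 15, the lowest score of its list, from 145740342 to 145740483. No MEF list of a Pol III subunit had a peak at these 3 positions, and neither Pol II list did. The ES POLR3G list holds only 13 peaks, 3 of them on autosomes, so it can say little of POLR3G at these sites. Apart from the position on chromosome 13 it had no peak at any of the 328 loci (0.305% of loci called).

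The 97 POLR3C peaks without POLR3GL were spread over all 19 autosomes, but unevenly. Chromosome 13 held 93 POLR3C peaks, of which 82 were paired (88.2%, against 68.8% over all). Chromosome 9 held 16, of which 3 were paired and 13 were not, and chromosome 4 held 9, of which 2 were paired. Of the 97 peaks, 76 were more than 10 kb from any POLR3GL midpoint (1 of them on chromosome 18, which had none), and 6 were within 1 kb of one.

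Peaks in dense groups were paired more often than others. Loci of both lists at most 200 kb apart were joined, and 143 of the 328 loci fell into 7 groups that had 8 or more. In these groups 113 of 138 POLR3C peaks were paired (81.9%, 74.4 to 87.9%), against 101 of 173 elsewhere (58.4%, 50.7 to 65.8%). Scores were higher in the groups too, with a median POLR3C score of 1735.5 against 1352. In the quartile of POLR3C scores from 767 to 1573, where both kinds of peak occur, 31 of 42 were paired inside the groups (73.8%, 58.0 to 86.1%) and 26 of 36 outside (72.2%, 54.8 to 85.8%). At like scores the shares were thus close. Neighbouring loci are not independent, and no test was made.

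The groups were not alike. On chromosome 13 from 23362231 to 23622399, 33 of 37 loci were pairs and 4 were POLR3C alone, with a median POLR3C score of 1937. On chromosome 13 from 21252623 to 21418704, 22 of 25 were pairs, and from 21802426 to 22142660 it was 27 of 33. On chromosome 11 from 68850441 to 68938868, 11 of 15 loci were pairs, 3 were companion POLR3GL peaks and 1 was POLR3C alone. On chromosome 3 from 96125868 to 96305554, 8 of 16 loci were pairs and 8 were POLR3C alone, at a median POLR3C score of 1118. These 8 single peaks scored 325 to 1144, all 8 were called by POLR3C in MEFs, and 3 of them also by POLR3GL in MEFs, against 41.2% and 22.7% of all single POLR3C peaks. The group on chromosome 3 thus had the largest share of loci without POLR3GL among the 7 groups.

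Other lists separated pairs from single POLR3C peaks. MEF POLR3C was called at 205 of 214 pairs (95.8%, 92.2 to 98.1%) and at 40 of 97 single POLR3C peaks (41.2%, 31.3 to 51.7%), against 76.2% of all loci. MEF POLR3GL was called at 210 of 214 pairs (98.1%, 95.3 to 99.5%) and at 22 of 97 single POLR3C peaks (22.7%, 14.8 to 32.3%), against 74.7% of all loci. MEF POLR3G was called at 149 pairs (69.6%, 63.0 to 75.7%) and at 10 single POLR3C peaks (10.3%, 5.06 to 18.1%), against 50.9% of all loci. Its list is shorter, with 176 autosomal peaks against 274 for MEF POLR3C and 263 for MEF POLR3GL, which bounds its shares. For Pol II the shares were nearer to each other, with overlapping intervals. ES Pol II overlapped 77 pairs (36.0%, 29.6 to 42.8%) and 29 single POLR3C peaks (29.9%, 21.02 to 40.04%), against 33.5% of all loci, and MEF Pol II overlapped 67 (31.3%, 25.2 to 38.0%) and 25 (25.8%, 17.4 to 35.7%), against 29.3%.

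**Figure D4:**
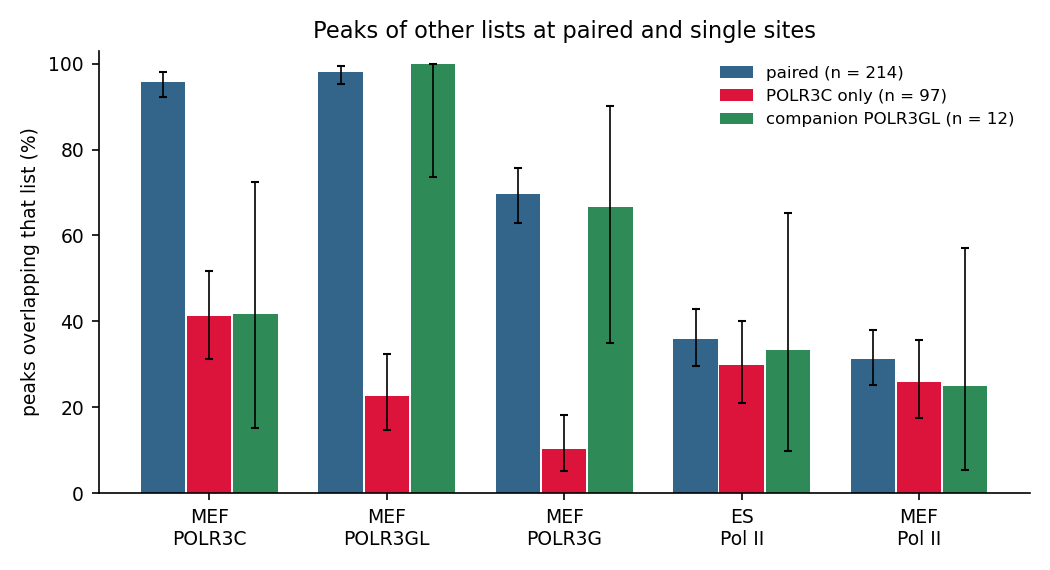
Share of paired POLR3C peaks, single POLR3C peaks and companion POLR3GL peaks of ES cells that overlap a peak of 5 other lists, in percent, with exact 95% intervals. The Pol III lists of MEFs cover 95.8%, 98.1% and 69.6% of pairs but 41.2%, 22.7% and 10.3% of single POLR3C peaks, while the intervals of pairs and single POLR3C peaks overlap for both Pol II lists.

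Part of this went with score. Within the POLR3C quartile from 767 to 1573, MEF POLR3C was called at 55 of 57 pairs (96.5%, 87.9 to 99.6%) and at 16 of 21 single peaks (76.2%, 52.8 to 91.8%). MEF POLR3GL was called at 55 of 57 pairs (96.5%) and at 9 of 21 single peaks (42.9%, 21.8 to 65.98%). The gap between pairs and single peaks was thus smaller in this quartile than over all scores for both MEF lists. ES Pol II overlapped 21 of these pairs (36.8%, 24.4 to 50.7%) and 3 of these single peaks (14.3%, 3.05 to 36.3%). MEF Pol II leaned the other way, at 19 of these pairs (33.3%, 21.4 to 47.1%) and 9 of these single peaks (42.9%), and for both Pol II lists the intervals overlap. Pairs in this quartile still had the higher scores, with a median of 1287 against 949 for single peaks. The part of score in the remaining gap was not tested.

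Single POLR3C peaks fell into 3 kinds by their MEF calls. At 22 of the 97, both POLR3C and POLR3GL were called in MEFs, with a median ES POLR3C score of 728. MEF POLR3G was called at 10 of these 22 and not at the other 12, and 8 of the 22 lay in the dense groups (36.4%, against 25.8% of all 97). At 18, POLR3C but not POLR3GL was called in MEFs, with a median ES score of 650, and 11 of the 18 lay in the dense groups (61.1%). At 57 neither was called in MEFs, with a median ES score of 364, and 6 of the 57 lay in the dense groups (10.5%). None had MEF POLR3GL without MEF POLR3C.

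The 5 single POLR3C peaks of highest score were of both sorts. At chromosome 18 from 36961454 to 36961667 POLR3C scored 1248 in ES cells, and all 3 MEF lists had a peak (POLR3C 302, POLR3GL 77, POLR3G 37). The ES POLR3GL list held no peak on chromosome 18. At chromosome 17 from 26011920 to 26012133 POLR3C scored 1352, and the MEF scores were 216 for POLR3C and 56 for POLR3GL. At chromosome 13 from 22032740 to 22032953 POLR3C scored 1274, with MEF scores of 246, 62 and 23 for POLR3C, POLR3GL and POLR3G. The other 2, at chromosome 9 from 35112820 to 35113033 (1911) and chromosome 2 from 98506831 to 98507044 (1534), had no Pol III call in MEFs and were over 20 Mb from any POLR3GL peak of ES cells. So 3 of the 5 were Pol III sites in MEFs, and the 2 with the highest scores were not called as such.

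Of the 57 single POLR3C peaks without a POLR3C or POLR3GL call in MEFs, 11 overlapped a MEF Pol II peak, against 25 of all 97 (25.8%). Of the 11, 10 had no ES Pol II peak, and 8 of those 10 lay at 3 places, described here after their values were seen. A run of 7 single POLR3C peaks lay on chromosome 9 from 3015618 to 3035954, with scores of 273 to 767, and 2 lay on chromosome 2 from 98502805 to 98507044, with scores of 1183 and 1534. Of the 7, 5 overlapped a MEF Pol II peak, as did both on chromosome 2 and the peak at 35112820 on chromosome 9. The other 2 of the run had no Pol II peak in either cell type, and none of these 10 POLR3C peaks of chromosomes 2 and 9 had ES Pol II. MEF Pol II without ES Pol II was also found at the single POLR3C peaks on chromosome 10 from 126749587 to 126749800 (POLR3C score 442) and chromosome 12 from 3109925 to 3110138 (533). The MEF Pol II peaks at 35112820 on chromosome 9 and at 98506831 on chromosome 2 scored 2568.95 and 1467.62, at percentile 99.96 and 99.9 of that list. No Pol III list of MEFs had a peak at any of the 10 peaks on chromosomes 2 and 9. What these positions hold is not known here: without an mm9 annotation of repeats or of regions prone to artifacts, it was not tested whether their scores reflect Pol III at all. The same limit applies to the 2 highest scores among the single POLR3C peaks. Of the remaining 47, with a median score of 338, 17 overlapped ES Pol II and 3 overlapped MEF Pol II. These 17 were 29.8% of the 57, against 29.9% of all 97 single POLR3C peaks with ES Pol II. Of the 13 single POLR3C peaks of chromosome 9, 8 were among the 10 peaks of chromosomes 2 and 9.

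Within pairs, the scores of the subunits rose together. The Spearman correlation was 0.83 and Pearson's r 0.81 over 214 pairs, given as a description, since loci of 1 library are not replicates and share its depth. It was 0.76 over the 82 pairs on chromosome 13 and 0.87 over the other 132. The 25 POLR3C peaks of highest score (lowest score 2457) were all paired. Of these, 15 were among the 25 highest POLR3GL peaks (lowest score 43), or 60% of each set. The overlap was 35 of 50 (70%) and 79 of 100 (79%) for longer sets from each list. Peaks tied at the lowest score of a set were taken in order of position, so these overlaps can depend on that choice. The pairs of highest mean rank were chromosome 11 from 48670029 to 48670242 (POLR3C 2873, POLR3GL 54), chromosome 3 from 90279743 to 90279956 (2886 and 53), chromosome 6 from 86353777 to 86353990 (2782 and 56), chromosome 11 from 106874127 to 106874340 (3069 and 49) and chromosome 5 from 125886322 to 125886535 (2834 and 50). All 5 were also called by POLR3C, POLR3GL and POLR3G in MEFs, as were 95.8%, 98.1% and 69.6% of all pairs.

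The direction of rank disagreements depended on the peaks that were ranked. With ranks within each whole list, 52 of 214 pairs (24.3%) ranked 25 points or more higher for POLR3C and 2 (0.935%) for POLR3GL. With both ranked among the 214 pairs, which leaves out the 97 single POLR3C peaks, the split was 16 (7.48%) against 13 (6.07%), and the median absolute difference was 9.62 points. Ranks among pairs are used in what follows. The 16 pairs that ranked higher for POLR3C had a median offset of 41 bp (7 to 70), against 15 bp (11 to 20) in the 185 pairs within 25 points, and the 13 that ranked higher for POLR3GL had 9 bp (2 to 62). These intervals overlap. Of the 16, 10 lay on chromosome 13, and of the 13, 7 did (62.5% and 53.8%), against 35.1% of the 185.

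Loci were named by the difference of their ranks within the whole lists, and differences among pairs are given. The widest gap was at chromosome 4 from 43505828 to 43506041. There POLR3C scored 2119 (rank 71.1 among pairs) and POLR3GL 21 (rank 9.86), a difference of -61.3 points, with midpoints 7 bp apart. POLR3C also ranked higher at chromosome 13 from 21264176 to 21264389 (2158 and 25, -48.4 points) and at chromosome 11 from 97849526 to 97849739 (2210 and 26, -47.9 points). The same held at chromosome 13 from 23391896 to 23392109 (2028 and 24, -40.4 points) and from 22011960 to 22012173 (1768 and 20, -33.3 points). In the other direction, POLR3GL ranked higher at chromosome 13 from 23504695 to 23504908 (POLR3C 1820, POLR3GL 49, 50.5 points) and from 23492640 to 23492853 (2002 and 53, 39.4 points). It did so too at chromosome 3 from 19528774 to 19528987 (1677 and 37, 37.8 points), and at chromosome 13 from 22112968 to 22113181 (1599 and 35, 37.1 points) and from 22107553 to 22107766 (1911 and 41, 31.7 points). Of these 10 loci, 7 lay on chromosome 13, which held 82 of all 214 pairs.

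The disagreements seen in ES cells mostly did not recur in MEFs. Ranked among the 201 loci called by both antibodies in both cell types, POLR3C was 25 points or more higher at 16 ES cell loci and at 16 MEF loci, and POLR3GL at 13 and 16. POLR3C was so in both cell types at 2 loci, POLR3GL at 0, and the direction was opposite at 2. In sign alone, MEFs matched at 11 of the 16 ES cell loci higher for POLR3C, where 49.3% of all 201 loci had that sign. They matched at 8 of the 13 higher for POLR3GL, where 49.8% of all loci had that sign. Across the 201 loci the rank difference in ES cells bore almost no relation to that in MEFs (r = 0.07, rho = 0.09), and r was 0.01 without the locus of the widest gap in ES cells. Scores of the 2 antibodies within one cell type went together more closely (rho = 0.82 in ES cells, 0.81 in MEFs) than scores of one antibody across cell types (rho = 0.57 for POLR3C, 0.58 for POLR3GL). A library and its cell type cannot be told apart here, since each antibody has 1 library per cell type.

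The exception was the locus with the widest gap. At chromosome 4 from 43505828 to 43506041 MEF POLR3C scored 279 and MEF POLR3GL 45. Ranked among the 201 loci, POLR3C stood at 69.8 in ES cells and 96.5 in MEFs, and POLR3GL at 9.5 and 36, which gives differences of -60.3 points in ES cells and -60.5 in MEFs. MEF POLR3G scored 18 there, and ES Pol II overlapped the site. The other recurrent locus, chosen by this recurrence, was chromosome 13 from 22066794 to 22067007, with 2262 for POLR3C and 31 for POLR3GL in ES cells (-28 points) and 246 and 46 in MEFs (-36.5 points). In contrast, chromosome 11 from 97849526 to 97849739 went from -47 points in ES cells to 8.5 in MEFs, and chromosome 13 from 23504695 to 23504908 from 50.8 to -0.75 points.

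**Figure D5:**
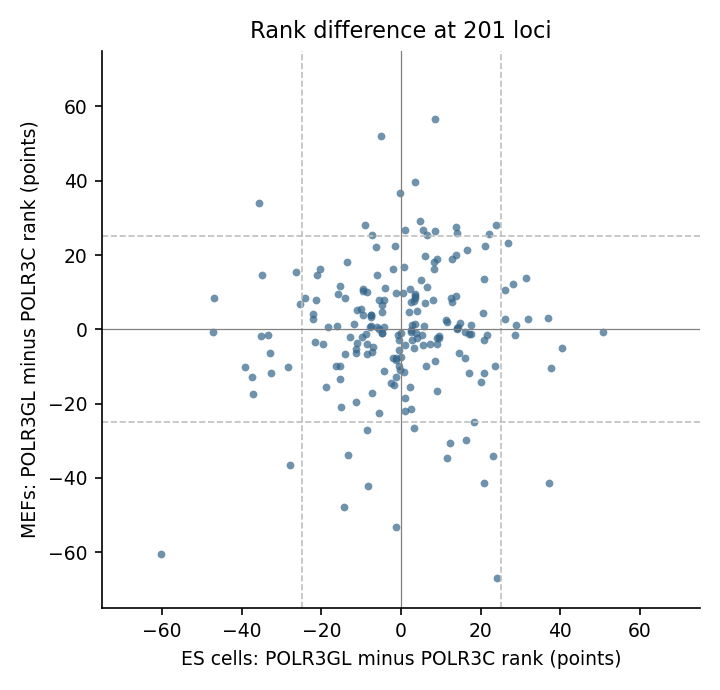
Percentile rank of POLR3GL minus that of POLR3C at 201 loci, in points, in ES cells (x axis) and MEFs (y axis), with dashed lines at 25 points either way. Points scatter around 0 with almost no relation between the cell types, and 1 locus lies at -60.3 points in ES cells and -60.5 in MEFs.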

How the data were processed

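Each library has 1 deposited peak list. The submitters' processing notes name CASAVA 1.8, Bowtie 1.12, SAMtools and HOMER with the build mm9. The calling thresholds, the control and any pooling were not given in the sources used here. The authors deposited 1 score per peak without a header or a stated scale, so scores were ranked within a list and never compared in size between lists. The 2 input libraries were not analysed here. Starts were read as 0-based and printed 1-based.

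Pairs are mutual nearest midpoints up to 500 bp apart. Shares have exact Clopper-Pearson 95% intervals, medians order-statistic 95% intervals. Both cover counting over peaks only. With 1 library a side no test was made, and no p-value is given. Loci were named by fixed rules of rank (5 per class), with exceptions stated where they occur. The members, the lists and the rules were chosen with earlier results of these data known. The pairing was tested on simulated lists that held at most 1 planted partner per POLR3C peak. Companion peaks and the widest offsets were not covered by that test. Alternatives changed the overlap, distance, chromosomes, score minimum, rank base and group definition. Calculations used Python 3.11.15, numpy 2.4.6, scipy 1.17.1, pandas 2.3.3 and matplotlib 3.10.9.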

Additional observations from a re-analysis of the deposited data

Results flagged for a closer look

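Peaks on chromosomes X and Y were left out of the autosomal comparison by its rule. The ES POLR3C list held 6 such peaks, all on chromosome X, with scores of 286 to 1495. The ES POLR3GL list held 12, 7 on X and 5 on Y, with scores of 16 to 99. Of the 12, 11 had no POLR3C peak within 500 bp, 6 on X and 5 on Y, with a median score of 23. Of all these, 1 peak of each list overlapped the other list.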

How the results depend on the processing

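Of 70 alternative values for 21 results, 56 stayed within the interval or within 1.5 times the main value, and 14 moved. Whether a direction was reversed was not assessed. The share of POLR3C peaks with POLR3GL was 60.6% without chromosome 13. The share of POLR3GL peaks with POLR3C was 97.8% with midpoints within 500 bp and 88.5% with sex chromosomes. Without chromosome 13 the pairs numbered 132, since fewer peaks entered, and the rank correlation was 0.87. Among peaks from the median score of their list upwards, the correlation was 0.66, over a narrower range of scores. Rank disagreements numbered 31 at 33 points and 29 with ranks among pairs, against 54. Single POLR3GL peaks numbered 17 with midpoints within 250 bp and also with 1 bp of overlap, 3 within 1 kb, 16 with sex chromosomes and 3 without chromosome 13, against 5. The share of pairs with MEF POLR3C was 99.1% within 500 bp. Every count, offset and rank rests on 1 library a side of unknown depth. No paired analysis was possible because each group has 1 library and the labels give no replicate numbers.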

Other observations

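The deposited scores of the 2 lists differ in grain. Of the 311 autosomal POLR3C scores, 308 were exact multiples of 13, and the lowest, 260, is 20 such steps. They took 153 different values. The 231 POLR3GL scores took 39 different whole values, from 15 to 60. Ties are therefore common in both rankings, and ranks of tied peaks were averaged.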
